A study of Caenorhabditis elegans with 2 samples.

Results

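REPO-1 summits at 9 genes of germ granules and small RNA pathways in Caenorhabditis elegans are described here: glh-1, pgl-1, pgl-3, deps-1, cgh-1, car-1, prg-1, csr-1 and wago-1, out of 19973 protein-coding genes of the nuclear genome. They were chosen by name with earlier results of these peak lists in view, and the rule then took every summit inside each gene or within 1000 bp of it, with its position and its rank by signal, so these values are a description and no test was run on them. The data are ChIP-seq peak lists from whole young adult worms of strain OP688, genotype unc-119(tm4063) III; wgIs688, in which an inserted transgene makes REPO-1 with GFP-FLAG at its C terminus. Chromatin was pulled down with an antibody to GFP from 2 biological replicates of mixed sex, collected 53 hours after synchronisation as starved L1 larvae, and they form 1 group with no other genotype or control analysed here. Both replicates therefore carry the transgene and the unc-119 allele, and whole worms mix germline and somatic nuclei, so the tissue in which a peak arose cannot be told apart. All 9 symbols matched 1 protein-coding gene each, 5 of them on chromosome I, 2 on IV, 1 on III and 1 on V.

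The U2 snRNP recognises the branch point of introns during splicing, and REPO-1 is the counterpart in worms of its human subunit SF3A2. Germ granules, called P granules in C. elegans, are RNA and protein condensates that sit at the outer face of germ cell nuclei, where new transcripts leave. PGL-1 and PGL-3 are self-associating scaffold proteins, GLH-1 is a DEAD-box helicase related to Vasa, and DEPS-1 is needed for normal PGL-1 accumulation. CGH-1 is a DEAD-box helicase of the DDX6 family and CAR-1 an Sm-like protein of the same mRNA storage particles. PRG-1 is the Piwi protein that carries piRNAs, CSR-1 is an Argonaute loaded with 22G small RNAs against germline-expressed genes, and WAGO-1 is an Argonaute loaded with 22G RNAs in silencing.

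The following sequences are from the RefSeq copy of WBcel235, the assembly also called ce11. They are shown for both genes with replicated summits, cgh-1 and csr-1, and, as weaker summits at the same kind of place, for the genes of the PGL scaffold proteins. Each is on the strand of its gene, 5′ to 3′, and holds up to 100 bases on either side of the summit without any base of an annotated UTR. Capitals mark matches to 6 short motifs searched on both strands, which are named with their counts further on, and a sequence without capitals holds none of them.
cgh-1, past the 3′ end (chrIII:7494951-7495151, minus strand): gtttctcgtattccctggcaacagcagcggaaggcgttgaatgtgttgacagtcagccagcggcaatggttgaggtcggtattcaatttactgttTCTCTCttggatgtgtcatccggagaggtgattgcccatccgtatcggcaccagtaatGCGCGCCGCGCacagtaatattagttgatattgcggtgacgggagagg
cgh-1, upstream of the 5′ end (chrIII:7498479-7498679, minus strand): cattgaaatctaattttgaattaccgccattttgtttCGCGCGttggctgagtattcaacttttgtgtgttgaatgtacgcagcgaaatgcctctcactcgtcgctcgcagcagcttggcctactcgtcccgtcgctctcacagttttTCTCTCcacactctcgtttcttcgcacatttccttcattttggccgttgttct
csr-1, past the 3′ end (chrIV:7962158-7962298, plus strand): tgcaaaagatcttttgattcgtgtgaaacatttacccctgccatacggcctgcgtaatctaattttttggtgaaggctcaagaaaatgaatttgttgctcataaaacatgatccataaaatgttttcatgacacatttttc
pgl-3, past the 3′ end (chrV:4758736-4758936, plus strand): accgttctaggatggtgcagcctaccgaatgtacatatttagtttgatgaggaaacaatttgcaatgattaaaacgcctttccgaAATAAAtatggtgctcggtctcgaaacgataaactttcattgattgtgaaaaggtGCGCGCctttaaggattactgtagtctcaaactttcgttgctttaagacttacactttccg
pgl-1, past the 3′ end (chrIV:6974151-6974351, minus strand): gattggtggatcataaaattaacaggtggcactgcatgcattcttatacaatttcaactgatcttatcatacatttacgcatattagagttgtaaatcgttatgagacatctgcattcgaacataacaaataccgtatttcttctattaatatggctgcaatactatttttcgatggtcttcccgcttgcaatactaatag

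Of the 9 genes, cgh-1 and csr-1 carried summits of the replicated list, and the other 7 carried none. This list holds the 1789 strongest summits called on both replicates together, as thresholded by the authors on reproducibility, and 10.7% of all protein-coding genes had one of them in the gene or within 1000 bp. There were 3 replicated summits at the 2 genes and none of them lay inside either gene. A replicated summit at the 3′ end, from 500 bp inside to 1000 bp beyond it, was found at 2 of the 9 genes and at 5.92% of all protein-coding genes. One at the 5′ end, from 1000 bp upstream to 500 bp inside, was found at 1 of the 9 genes and at 4.62% of all. A single gene is 11.1% of the 9, and the rule used these counts, so nothing is read from the shares.

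The cgh-1 gene (WBGene00000479, III: 7495320 to 7497832, minus strand) had a replicated summit beyond each end. The stronger lay 269 bp past the 3′ end, at position 7495051 in a region from 7494987 to 7495146, with a signal of 214.1 and rank 544 in the replicated list. Signal here is the authors' own value for a peak, whose scale is not stated, and rank 1 is the strongest. The highest signal was 1217.6 in the pooled list, 695.8 in replicate 1 and 515.5 in replicate 2, so lists are compared by rank. The same place ranked 495 in replicate 1 (signal 135.5) and 657 in replicate 2 (signal 87.3), each among 30000 summits. The second summit lay 747 bp upstream of the 5′ end, at 7498579, with a signal of 177.9 and rank 848. It ranked 635 in replicate 1 and 2429 in replicate 2, so it stood among the first 1789 of replicate 1 and not of replicate 2. Replicated summits at both ends of a gene were found at 1.07% of all protein-coding genes. The summit past the 3′ end fell between 2 annotated non-coding genes on the same strand, C07H6.15 at 37 bp and C07H6.17 at 39 bp, and which of the 3 genes the peak belongs to cannot be told apart. Upstream, the gene C07H6.9 lies 915 bp from cgh-1 on the same strand, and the upstream summit is 169 bp past its 3′ end, nearer than to cgh-1, so these genes cannot be told apart either.

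The csr-1 gene (WBGene00017641, IV: 7957267 to 7962157, plus strand) had 1 replicated summit, 41 bp past its 3′ end at 7962198, with a signal of 210.9 and rank 571. Replicate 1 placed a summit 60 bp past the end with rank 508. Replicate 2 split the same stretch into a summit 145 bp inside the gene, in its 3′ UTR, with rank 678, and another 133 bp past the end with rank 1086. The replicated summit is also inside an intron of frpr-10, a longer gene on the same strand whose outermost 5′ end lies inside csr-1. A 5′ end of a frpr-10 transcript is 355 bp from this summit. The replicate 2 summit of rank 678 is also in a 5′ UTR of frpr-10, 169 bp from a 5′ end of that gene. Whether the peak belongs to csr-1 or to frpr-10 cannot be told apart. A weaker pooled summit, with rank 6526, lay 533 bp inside csr-1 and 4 bp from the outermost 5′ end of frpr-10. Along the csr-1 body 6 pooled summits were found, the strongest with a signal of 86.0 and rank 5581 in a coding exon, 127 bp from the 5′ end of a shorter csr-1 transcript.

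Among replicated summits, those nearest to the limit of 1000 bp were that of cgh-1 at 747 bp inside the window and, outside it, summits 1832 bp from deps-1 (rank 1624, 116 bp from a 5′ end of Y65B4BL.7) and 1837 bp from cgh-1 (rank 1402, 69 bp from a 5′ end of sap-140). In the other lists a summit of replicate 2 lay at the limit itself, 1000 bp upstream of pgl-3. For the other genes the next replicated summit was 6314 bp (prg-1) to 65305 bp (pgl-3) away.

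In the pooled list every one of the 9 genes had summits, and all 9 had one within 500 bp beyond the 3′ end. Those of cgh-1 and csr-1 are the replicated summits above, and those of the other 7 genes are not in the replicated list. The pooled list holds 30000 summits and, by the name it was deposited under, mixes peaks with background. In it 58.3% of all protein-coding genes, and 60.2% of those as long as the 9 (1571 to 4891 bp), had a summit in the gene or within 1000 bp. The window from 1 to 500 bp past the 3′ end held a pooled summit at 9 of 9 genes, against 25.2% of all protein-coding genes and 26.6% of those of the same lengths. The window from 1 to 500 bp before the 5′ end held one at 1 of 9 genes, pgl-1, against 15.6% of all. In the lists of the single replicates the window past the 3′ end held a summit at 9 of 9 genes each time, against 24.5% of all genes in replicate 1 and 25.3% in replicate 2. The genes were proposed with results in view and these windows were set after the positions had been seen, so the counts are set beside the background and not tested.

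**Figure D1:**
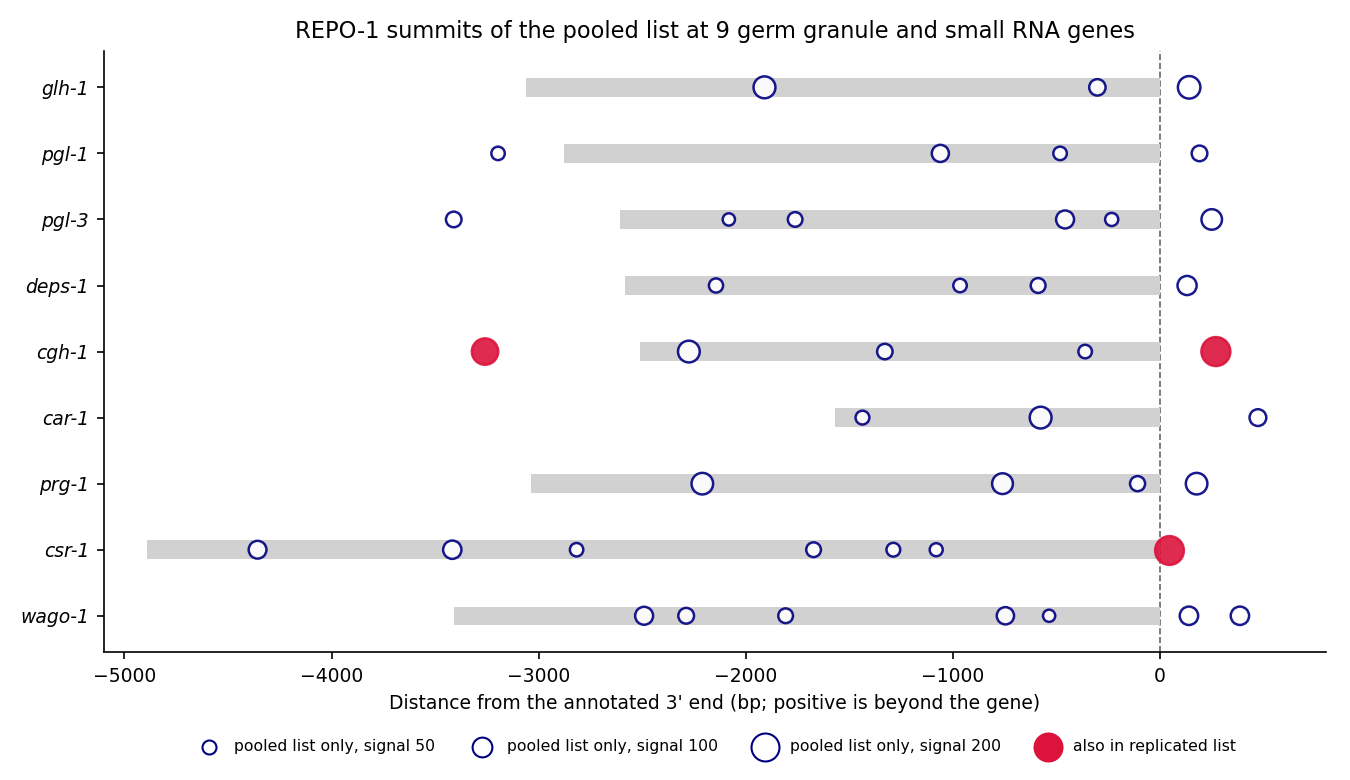
Each row is a gene, drawn as a grey bar ending at its annotated 3′ end (0 on the horizontal axis, in bp), with circles for the summits of the pooled list sized by signal and filled where the summit is also in the replicated list. Every row has a circle to the right of 0, between 41 and 472 bp, and the 3 filled circles belong to cgh-1 and csr-1.

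The 10 pooled summits past the 3′ ends lay 41 to 472 bp beyond them, and 0 lay farther out, up to 1000 bp. Taking the strongest per gene, the median distance was 176 bp and the median signal 107.7, against a median signal of 72.6 over the 5025 protein-coding genes with a summit in this window. A summit of replicate 1 lay within 150 bp of 9 of the 10, and one of replicate 2 within 150 bp of all 10. Over all 43 pooled summits at the 9 genes, the matches were 31 and 37. The pooled list combines both replicates and matches were not counted over all its summits, so nothing particular to the 9 is read from them. For 6 of the 9 genes the summit past the 3′ end was the strongest of all pooled summits at the gene, against 21.9% of the 11640 protein-coding genes with a pooled summit. The exceptions were car-1, pgl-1 and prg-1. All 9 genes had a summit in this window, while only 5025 of the 11640 did. Of these 5025 genes, 2550 had it as their strongest, so the contrast largely repeats the count of 9 of 9. In the list of replicate 1 and in that of replicate 2 the summit past the 3′ end was the strongest at 5 of 9 genes. The shares were 20.9% of the 12304 genes with a summit in replicate 1 and 21.8% of the 11894 in replicate 2. Of the genes with a summit past the 3′ end, it was the strongest at 2570 of 4895 in replicate 1 and 2593 of 5057 in replicate 2. The strongest summit of the other 4 of the 9 genes in each replicate was inside the gene. Only cgh-1 and deps-1 had it past the 3′ end in both replicates. The signal past the 3′ end was higher than that before the 5′ end at 9 of 9 genes, against 21.6% of all protein-coding genes, counting a window without a summit as 0. Except at pgl-1 this follows from the counts above, since the other genes had no summit before the 5′ end. At pgl-1 the signals were 62.8 past the 3′ end and 46.2 before the 5′ end. Of the 5025 genes with a summit past the 3′ end, 4315 had the higher signal there.

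**Figure D2:**
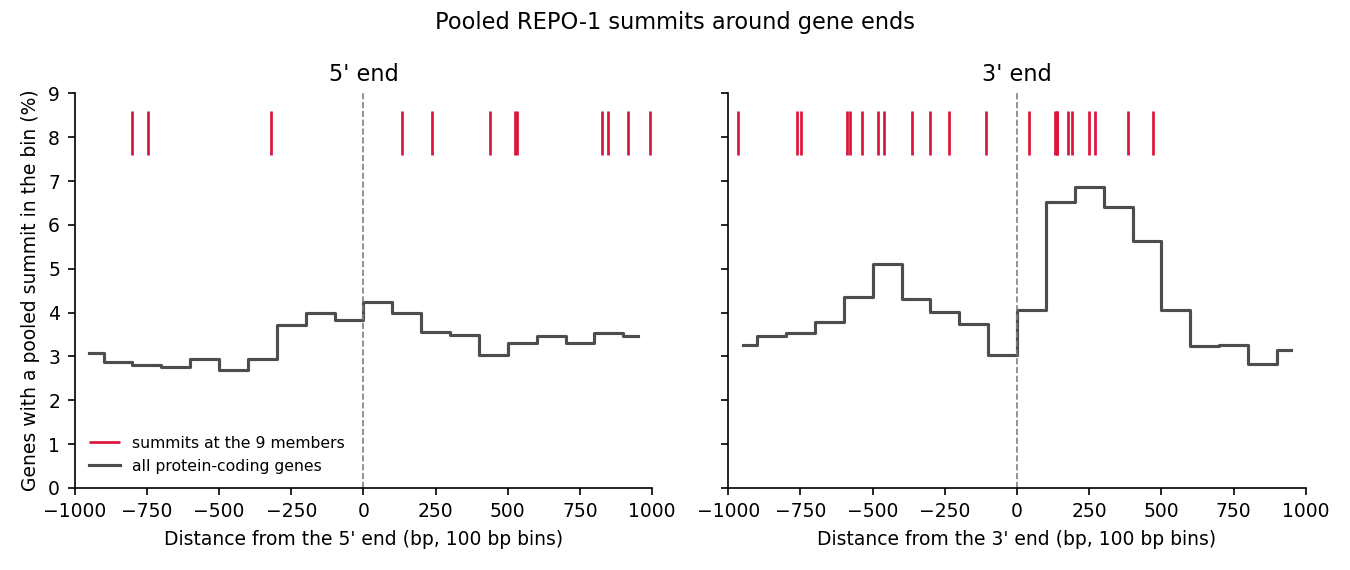
The line gives the share of all protein-coding genes (%) with a pooled summit in each 100 bp bin around the 5′ end (left) and the 3′ end (right), and the red ticks mark the pooled summits at the 9 genes. For all genes the share is highest, 6.86%, from 200 to 300 bp past the 3′ end, and the ticks past the 3′ end lie between 41 and 472 bp.

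Among the genes of granule proteins, glh-1 came closest to the replicated list. In glh-1 (WBGene00001598, I: 6854478 to 6857536, plus strand) the summit 140 bp past the 3′ end had a signal of 129.5 and rank 1872 in the pooled list, just below the lowest signal of the replicated list, 131.5. It ranked 1908 in replicate 1 and 3166 in replicate 2. A second summit of similar signal, 122.7 and rank 2189, lay in a coding exon 1148 bp from the 5′ end. It was the stronger of the pair in replicate 2, where the summit inside the gene ranked 1311. No other gene covered the summit past the 3′ end, and the next protein-coding gene in that direction, let-383, begins 4776 bp away.

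For the scaffold protein genes the values were lower and less alike between replicates. In pgl-3 (WBGene00003994, V: 4755979 to 4758587, plus strand) the summit 249 bp past the 3′ end had a signal of 107.7 and rank 3092, and replicate 1 had one at 287 bp with rank 8536. Replicate 2 had a pair around it, at 108 bp with rank 2635 and at 336 bp with rank 4486. A summit in a coding exon, 459 bp before the 3′ end, had rank 6187. In pgl-1 (WBGene00003992, IV: 6974441 to 6977318, minus strand) no pooled summit ranked above 7889, and that one lay in a coding exon with a signal of 75.1. The summit 190 bp past the pgl-1 3′ end had a signal of 62.8 and rank 11980. Replicate 2 placed it at 158 bp with rank 3764, while the nearest in replicate 1 was 459 bp past the end with rank 8512. Upstream summits of both genes fell in neighbours: that of pgl-1, at 319 bp, was in a coding exon of the divergent gene him-3, and that of pgl-3, at 802 bp, in a coding exon of hil-4. Past the 3′ end pgl-1 ranked below glh-1 in both replicates, while the strongest of pgl-3 ranked below it in replicate 1 and above it in replicate 2.

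The deps-1 gene (WBGene00022034, I: 506473 to 509056, plus strand) had its strongest summit 130 bp past the 3′ end, with a signal of 93.8 and rank 4447, and with ranks of 4209 in replicate 1 and 2193 in replicate 2. No summit inside deps-1 had a signal above 56.0. The convergent gene Y65B4BL.7 overlaps the end of deps-1 by 109 bp, and the summit was in a coding exon of that gene.

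In car-1, the other gene of mRNA storage particles besides cgh-1, the strongest summit was inside the gene. In car-1 (WBGene00012484, I: 12904470 to 12906040, plus strand) it lay in an intron 993 bp from the 5′ end, with a signal of 121.5 and rank 2252, and ranked 2561 in replicate 1 and 2040 in replicate 2. Both replicates placed it in a coding exon instead, at 948 bp in replicate 1 and 980 bp in replicate 2. The pooled summit past the 3′ end was the most distant of the 9, at 472 bp, with a signal of 71.9 and rank 8712, inside an annotated pseudogene on the opposite strand. Replicate 2 had its strongest summit there at 125 bp, with rank 5754. Of the 9 genes car-1 is the shortest, at 1571 bp.

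Among the other Argonaute genes, prg-1 had 3 summits of nearly equal signal. In prg-1 (WBGene00004178, I: 7585329 to 7588367, minus strand) these were 119.1 in a coding exon 828 bp from the 5′ end (rank 2367), 119.0 at 176 bp past the 3′ end (rank 2376) and 110.3 in a coding exon 761 bp before the 3′ end (rank 2914). In replicate 2 the summit past the 3′ end ranked 1276 and the one nearest the 5′ end 1298, both within the first 1789 places, while in replicate 1 they ranked 3074 and 6089. The summit past the 3′ end was in a coding exon of the convergent gene D2030.12, which overlaps prg-1 by 12 bp. In wago-1 (WBGene00011061, I: 7235384 to 7238792, plus strand) a pair of summits lay past the 3′ end, at 139 bp (signal 86.8, rank 5451) and 385 bp (signal 86.3, rank 5522). In replicate 1 the strongest was at 435 bp with rank 1876, and in replicate 2 at 288 bp with rank 6421. The convergent gene dhp-1 ends 200 bp from wago-1, so the farther summit was inside dhp-1 and the nearer one in the gap between the genes. At deps-1, prg-1 and wago-1 the same peak is also at the 3′ end of a convergent neighbour, and the part of each gene in it cannot be told apart.

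**Figure D3:**
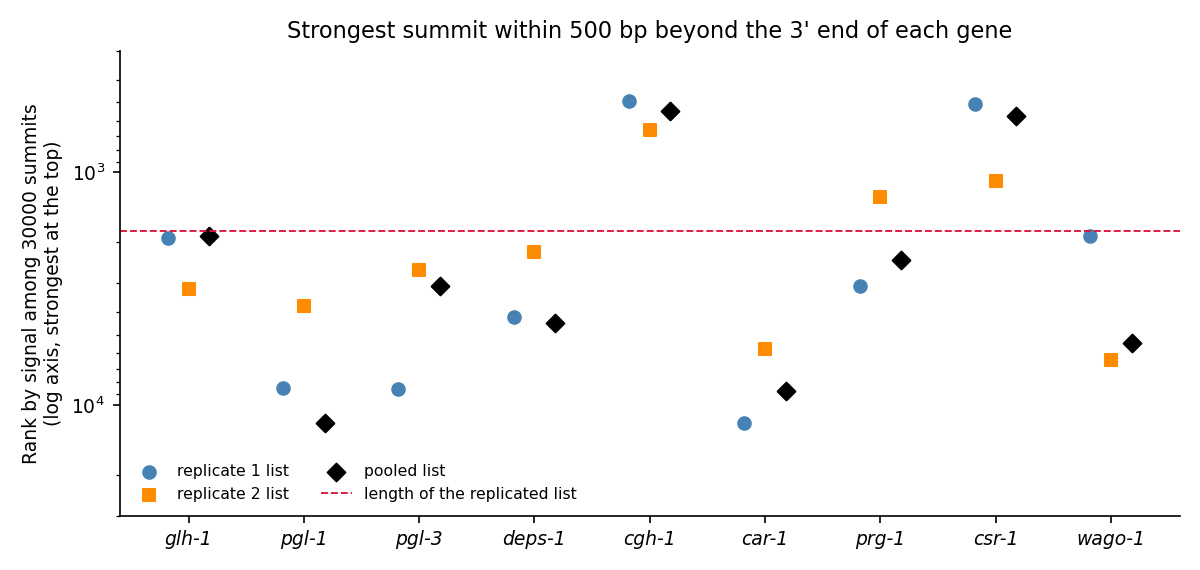
For each gene, the rank by signal of its strongest summit within 500 bp beyond the 3′ end is shown in the lists of replicate 1, replicate 2 and the pooled data, on a log axis with the strongest at the top and a dashed line at 1789. The markers of cgh-1 and csr-1 are above the line in every list, that of prg-1 is above it in replicate 2 only, and those of the other genes are below it.

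Between the replicates, cgh-1 and csr-1 kept their place at the head of the 9 past the 3′ end, and the order of the rest changed. The 1789 strongest summits of replicate 1 included 3 summits at 2 of the genes, cgh-1 and csr-1. Those of replicate 2 included 7 summits at 4 genes, with glh-1 and prg-1 added. Of all 19973 protein-coding genes, the same cut gave 2123 in replicate 1 and 2094 in replicate 2. Neither depth nor quality of the libraries is known from these lists, and their part in the difference at the 9 genes was not tested. Among the 11640 genes with a pooled summit, cgh-1 and csr-1 stood at ranks 769 and 803 by their strongest signal and pgl-1 at rank 6209.

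Inside the gene bodies the 9 genes had 30 pooled summits, and over the whole windows 24 of 43 summits fell in coding exons of the members, 4 in introns, 2 in 3′ UTRs and 13 outside the gene. The summits outside had a median signal of 93.8, those in coding exons 59.65, those in introns 58.35 and those in 3′ UTRs 52.45. Several of those outside lay in neighbouring genes, as given above. The same classes were not counted over all genes, so nothing particular to the 9 is read from these values. One summit of cgh-1, with rank 12677, lay in an intron at the nested snoRNA gene C07H6.10.

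Letters were counted in windows reaching 100 bp to either side of the strongest summit past each 3′ end. Their median GC content was 36.3%, against 42.3% over all replicated summits and 40.3% over all pooled summits. The window of cgh-1 had 51.7% and the others 30.3% to 41.8%. The summits compared with, here and for the letters below, lie at any position. Summits past the 3′ ends of all genes were not counted apart. The letters AATAAA, the poly(A) signal, were in 5 of the 9 windows, against 31.2% of replicated and 28.2% of pooled summits. TTTCAG, the consensus of worm 3′ splice sites, was in 1 of 9, that of deps-1, against 25.3% of replicated and 32% of pooled summits. GAGAGA was in 2 windows (25.1% of replicated and 15.6% of pooled summits) and GCGCG in 2 (24.2% and 12.1%). TATAAA was in 1 (15.3% and 14.3%) and a run of TTTTTTTT in 1 (11.7% and 14.7%). Both cgh-1 windows printed above hold GAGAGA, on the other strand, and GCGCG, a combination found in 6.65% of replicated and 2.42% of pooled windows. Only single motifs had been planned, so the pair is a later addition and nothing is read from its share. The upstream cgh-1 window has 46.8% GC, and windows of like GC content were not compared. The csr-1 window holds AATAAA only in the part left out above, inside the gene. Both strands were searched, GCGCG overlaps its own complement in GCGCGC, and AATAAA and TATAAA can share bases. These matches describe letters, not sites.

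Other genes of the same pathways were looked up from a list of 124 symbols in 5 roles, written from general knowledge with earlier results known. Of these 119 matched a protein-coding gene, and 110 remain without the 9 genes above. A replicated summit in the gene or within 1000 bp was found at 28 of the 110 (25.5%), against 10.7% of all protein-coding genes. These genes are longer than most, with a median of 3476 bp, against 2027 bp for all protein-coding genes, so their windows are wider too. In the window past the 3′ end, which has the same width for every gene, 11 of the 110 (10%) had a replicated summit, against 3.87% of all. In the window before the 5′ end 2 of the 110 (1.82%) had one, against 2.57% of all. In the pooled list the window past the 3′ end held a summit at 49 of 110 (44.5%) and the window before the 5′ end at 31 of 110 (28.2%), against 25.2% and 15.6% of all protein-coding genes. The pooled share past the 3′ end was uneven by role, counting the 9 genes. It was 21 of 27 (77.8%) for mRNA storage, 16 of 30 (53.3%) for small RNA synthesis and 8 of 16 (50%) for the P granule core. The 21 include cgh-1 and car-1, and the 8 include glh-1, pgl-1, pgl-3 and deps-1. For Argonautes the share was 6 of 20 (30%), with csr-1, prg-1 and wago-1 among the 6. For piRNA biogenesis and inheritance it was 7 of 26 (26.9%), near that of all genes. All 9 genes have such a summit, so the shares by role rest partly on them, and shares without them were not counted. How many of the genes in each set are transcribed in these worms was not measured, and its part in the shares was not tested.

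By role, the genes of mRNA storage, repression and decapping had replicated summits in 8 of 27 cases (29.6%), counting cgh-1, against 10.7% of all protein-coding genes. At the 3′ end 7 of the 8 had one, against 1183 of the 2132 protein-coding genes with a replicated summit. The translational repressor gene ifet-1 had the strongest, with rank 35 and upstream of its 5′ end, but that peak lay at a pair of non-coding genes and 267 bp from a 5′ end of the ribosomal protein gene rps-1. A second ifet-1 summit, with rank 350, lay 370 bp past the 3′ end. The deadenylase gene ccf-1 had a summit 298 bp past its 3′ end (rank 948), inside an intron of znf-593. Of this group, oma-1, pos-1, spn-4 and puf-5, named here after their values were seen and encoding RNA-binding regulators of oocytes and embryos, had summits of ranks 1264 to 1489. That of oma-1 was 270 bp, that of pos-1 151 bp and that of puf-5 50 bp past the 3′ end, and that of spn-4 was 2 bp before it. The oma-1 summit was also 193 bp from a 5′ end of spr-2 and the puf-5 summit 212 bp from a 5′ end of F54C9.9. That of spn-4 was also in the 3′ UTR of ZC404.15. Genes of the same group without a replicated summit include oma-2, mex-3, mex-5, mex-6, gld-1, pie-1, nos-2, fbf-1 and fbf-2. The gene mex-1, also named after its values were seen, was the only 1 of the 8 without a replicated summit at the 3′ end. Its summit, of rank 968, lay 958 bp upstream and 135 bp from a 5′ end of W03C9.5.

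Argonaute genes had replicated summits in 4 of 20 cases (20%), counting csr-1, against 10.7% of all protein-coding genes. The nuclear Argonaute gene hrde-1 had rank 326, 111 bp before its 3′ end in the 3′ UTR, and wago-4 had rank 945, 18 bp past its 3′ end. The fourth, alg-5, had rank 907 with a summit 768 bp upstream that was 98 bp from a 5′ end of the histone gene his-68.

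Genes of small RNA synthesis, amplification and modification had replicated summits in 10 of 30 cases (33.3%), against 10.7% of all protein-coding genes. The RNA-dependent RNA polymerase gene ego-1 was the strongest of the whole list, with rank 30, a position 418 bp before its 5′ end, and ranks of 27 and 33 in replicates 1 and 2. Also at the 5′ end were henn-1, which encodes a small RNA methyltransferase (rank 445, 461 bp inside), eri-5 (rank 557, 224 bp upstream) and simr-1 (rank 601, 512 bp upstream but 105 bp from a 5′ end of C06A5.3). The summit of nyn-2, with rank 449, was 342 bp past its 3′ end and 1 bp from a 5′ end of gpi-1. Genes of piRNA biogenesis and inheritance, where the list also placed the GW182 genes and tsn-1, had replicated summits in 6 of 26 cases (23.1%). This share is therefore not of piRNA genes alone. The 6 were led by ain-1, which encodes a GW182-type partner of miRNA Argonautes (rank 346, 844 bp upstream). Next were tsn-1 (rank 714, 199 bp past the 3′ end, in a coding exon of tag-151) and tofu-6 (rank 784, 1000 bp past its 3′ end, in a coding exon of F07F6.7). The P granule core and assembly genes had replicated summits in 2 of 16 cases (12.5%), close to the 10.7% of all protein-coding genes. These were mip-1 and mip-2, with ranks 1466 and 1468 and named after their values were seen. The summit of mip-1 was 845 bp past its 3′ end and 568 bp from a 5′ end of tag-325. That of mip-2 is also 297 bp past the 3′ end of its neighbour rde-12.

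**Figure D4:**
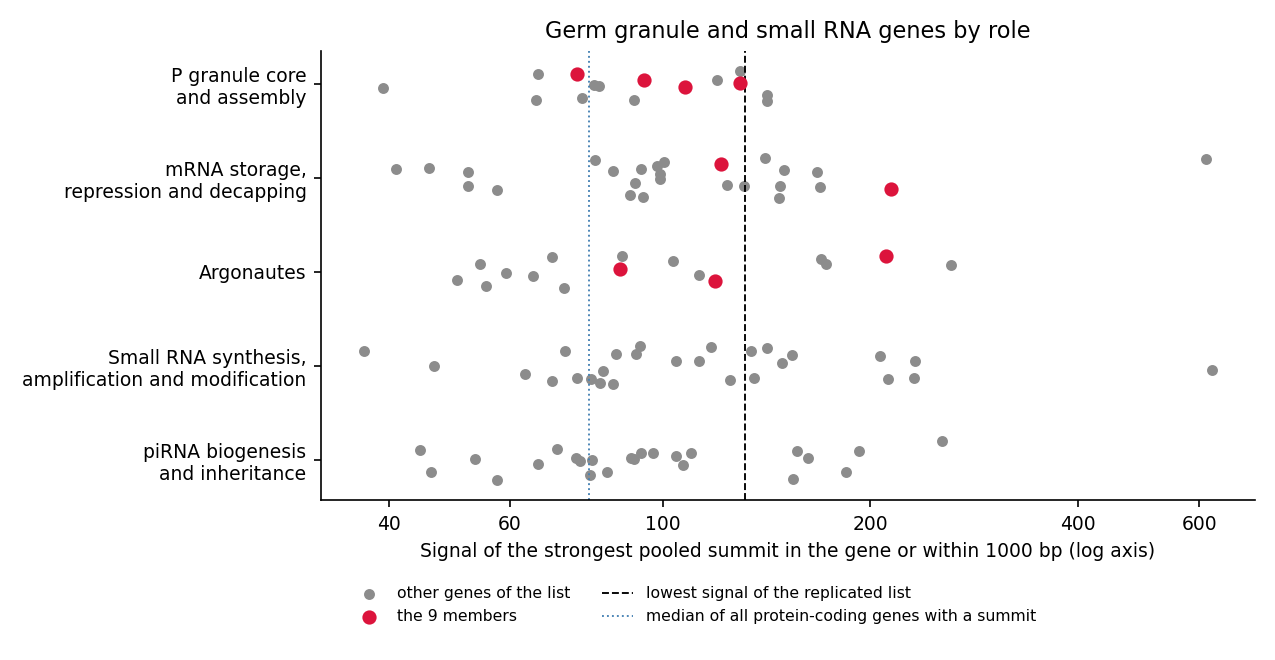
Each point is a gene of the pathway list with a pooled summit, placed by the signal of its strongest pooled summit in the gene or within 1000 bp (log axis) and grouped by role, with the 9 genes in red. The red points lie between 75.1 and 214.1, with those of cgh-1 and csr-1 beyond the dashed line at 131.5, the lowest signal of the replicated list, and 1 point, pgl-1, below the dotted line at 78.2, the median of all protein-coding genes with a summit.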

How the data were processed

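ChIP-seq of GFP-tagged REPO-1 was done in 2 biological replicates, which formed 1 group. The lists used, on ce11, were 1 per replicate, 1 pooled over both, and the replicated list, derived from the other lists by reproducibility thresholding, per the text files deposited with each sample. Not given in the sources used here are the peak caller, aligner, versions, threshold and sequencing depth, so no intervals can be given. Column 7 is a signal value deposited by the authors, of unstated scale, and column 9 the authors' deposited q-value as −log10. Ranks are by signal within a list, with the q-value as an alternative. All 1789 replicated summits are the strongest of the pooled list.

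Summits (1-based) were assigned to genes of Ensembl release 115 on WBcel235, the same assembly as ce11, by the outermost gene ends; those of the 9 genes differed from RefSeq's by at most 1 bp. A summit counted for every gene whose window held it. Regions with several summits were kept as several. The assignment was tested on simulated data. Of the pathway symbols, 5 matched no protein-coding gene, 3 of them pseudogenes in RefSeq. The members and lists were chosen with earlier results of these data known. All 9 genes are named, with the 15 pathway genes of strongest replicated signal, and others where stated. No test was run, since the rule uses every list and there is 1 group. The 500 bp windows beyond gene ends were added after the data were seen. Alternatives were other distances, region overlap, a higher signal, single replicates, nearest ends only and fewer pooled summits. Lists on ce10 were not used. The work was done in Python 3.11.15 with numpy 2.4.6, pandas 2.3.3 and matplotlib 3.10.9.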

Additional observations from a re-analysis of the deposited data

How the results depend on the processing

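Counts were recomputed under each alternative, and those that moved by more than 1.5 times are given here. Members with a replicated summit, 2 in all, were 1 within 200 bp and 0 inside the gene only, and their summits, 3 in all, were 1 and 0. The 1 member with a 5′ summit became 0 within 500 bp, within 200 bp and with the nearest end only, and the 2 with a 3′ summit became 1 within 200 bp. Without one replicate or the other, members with a summit ranged from 2 to 4, their summits from 3 to 7, members with a 5′ summit from 1 to 1 and with a 3′ summit from 2 to 3. All protein-coding genes with a replicated summit, 2132, were 1275 within 200 bp, 794 inside the gene, 1177 for peaks of at least median signal and 1329 with the nearest end only, and ranged from 2094 to 2123 without a replicate. Pathway genes, 30, were 13, 7, 12 and 14 under the same settings, and 27 to 33 without a replicate.

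In the pooled list the members with a summit past the 3′ end, 9, were 7 in 250 bp, 9 in 1000 bp, 8 among the strongest 10000 summits, 6 among the strongest 5000, and 9 in each replicate's list, against 13.7%, 34.7%, 13.7% and 8.92% of all protein-coding genes in the first 4 of these settings. All genes with such a summit, 5025, were 2735, 6940, 2738 and 1781 there and 4895 to 5057 without a replicate, and pathway genes, 58, were 38, 72, 42 and 33, and 58 to 65 without a replicate. Members with a summit before the 5′ end, 1, were 0 in 250 bp, 3 in 1000 bp, 0 among the strongest 10000 or 5000, and 0 to 1 without a replicate. All genes with one, 3123, were 1918, 5124, 1470 and 971, and 3101 to 3271 without a replicate. Ranks by q-value were within 1.5 times of those by signal for 9 of 9 members. These windows and settings were chosen after the data were seen. Narrower windows and fewer summits can only lower a count or leave it unchanged, by construction. The replicate numbers name samples of 1 group and pair nothing. No depth or control level is known, so a gene without a replicated summit is not shown to lack REPO-1.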
